A study of Mus musculus with 7 samples.

Results

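The nuclear-encoded subunits of the mitochondrial respiratory chain and of ATP synthase were examined in D3 mouse embryonic stem cells with and without calreticulin. Genes were taken by a rule on names that uses no measured value: every probe set whose only gene symbol in the platform annotation begins with Nduf, Uqcr or Atp5, begins with Cox followed by a digit from 4 to 8, or is Sdha, Sdhb, Sdhc, Sdhd or Cyc1. The gene set itself was chosen with earlier results of these data known. This gave 180 probe sets of 91 genes, out of 45101 probe sets and 18194 genes with a symbol of their own on the array. Of these genes, 34 encode subunits of complex I, 4 of complex II, 9 of complex III, 17 of complex IV and 17 of complex V. The remaining 10 share the names but are not subunits; they are the assembly factors Ndufaf1 to Ndufaf8, the supercomplex factor Cox7a2l and Ndufa4l2. Another 10 probe sets carried several symbols, at least 1 of them of this kind, and were left out. After a filter on low signals, 163 probe sets and 88 genes were tested; Ndufb4, Cox8b and Ndufa4l2 did not pass it.

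The series profiled 7 RNA samples on Affymetrix Mouse 430 2.0 arrays, 2 from wild type D3 cells and 5 from D3 cells in which the calreticulin gene had been knocked out. Both groups are labelled as embryonic stem cells of the D3 line, and no other agent, age or time point is given for either. Each sample was a pool of at least 3 cultures harvested together and is labelled as its own biological replicate. How many knockout clones were used is not given, so that the tests measure the spread between these pools and not between independent clones. Libraries are called wild type 1 and 2 and knockout 1 to 5 after the replicate numbers in their titles, and values are always given in that order.

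As background, the respiratory chain passes electrons from NADH and succinate to oxygen and uses the energy to pump protons across the inner mitochondrial membrane. Complex I (NADH dehydrogenase) and complex II (succinate dehydrogenase) hand electrons to ubiquinone, complex III (the cytochrome bc1 complex) passes them to cytochrome c, complex IV (cytochrome c oxidase) reduces oxygen, and complex V (ATP synthase) uses the proton gradient to make ATP. Most subunits are encoded in the nucleus and a few in mitochondrial DNA, and embryonic stem cells are known to rely heavily on glycolysis beside oxidative phosphorylation. Calreticulin is a chaperone that binds calcium inside the endoplasmic reticulum, the organelle from which mitochondria take up calcium.

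Calr had signals of 12460.0 and 10839.5 in the wild type and 858, 1055, 1064, 577 and 1005.5 in the knockout, and the knockout mean was 7.83% of the wild type mean (log2 difference -3.68, SE 0.30, limma adjusted p = 0.00531). All 12 stem cell markers fixed for the check of the cell type, Pou5f1, Sox2 and Nanog among them, lay above the array median in all 7 libraries. Knockout libraries 2 and 3 stood apart from the rest. Over the 27022 probe sets that passed the filter, r was 0.98 between them. It was 0.84 to 0.90 between either of them and the other 5 libraries, and 0.92 to 0.97 among those 5. Their log2 ratio of 3' to 5' signal for Actb was 0.79 and 0.89, against 1.46 to 2.08 in the others. The main counts over all members are therefore given with and without these 2 libraries, and so are the differences of some genes. Where no second value is given, a difference rests on all 7 libraries.

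Many respiratory genes are known targets of the transcription factors NRF1, GABP (an ETS factor), YY1 and the estrogen-related receptors (ERR). The RefSeq promoter table (GRCm38.p6) held 79 windows of 250 bases before the annotated start for 74 of the 91 genes. Of these windows, 16.5% held the NRF1 letters (GCGC, any base, then TGCGC) on either strand, against 3.74% of all 32851 windows in the table. The ETS letters CCGGAAG were in 17.7% of them against 6.91% of all. The YY1 letters AAGATGGCG were in only 1 member window (1.27%, against 0.606% of all). The ERR letters TCAAGGTCA were also in only 1 (1.27%, against 0.387%), too few to compare. None of these motifs contains another. The member windows were also richer in G and C, with a median of 57.6% against 52.4%. By complex, the NRF1 letters were found in 5 of 33 windows of complex I, 2 of 3 of complex II, 0 of 5 of complex III, 1 of 12 of complex IV and 4 of 18 of complex V. A match describes the letters of the window and does not show a bound site.

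The promoters of 3 genes that were lower and 1 that was higher in every knockout library are shown. They were picked because their windows hold both motifs, only 1 of them, or neither, so they do not show whether a motif goes with direction. Each is printed in the direction of the gene, ending at the base before the start, with motif matches in capitals. The Sdhd window (chr9:50603850-50604099, minus strand) holds an NRF1 match that begins 79 bases before the start and an ETS match that begins 46 bases before it, both on the opposite strand, so that the printed letters are the reverse complement of the motifs. The Ndufs3 window (chr2:90904722-90904971, minus strand) holds an ETS match at 27 bases, and the Ndufa8 window (chr2:36049339-36049588, minus strand) an NRF1 match at 30 bases. In the Cox6b2 window (chr7:4753095-4753344, minus strand) no letters of the 4 motifs were found. Among all 11 windows of members whose groups did not overlap, 2 held the NRF1 letters and 3 the ETS letters. Of those not shown, Ndufb7 (lower) held an ETS match. Atp5g1, Ndufv1 and Ndufv3 (lower) and Ndufs4, Ndufa13 and Ndufaf7 (higher) held none of the 4 motifs.
Sdhd: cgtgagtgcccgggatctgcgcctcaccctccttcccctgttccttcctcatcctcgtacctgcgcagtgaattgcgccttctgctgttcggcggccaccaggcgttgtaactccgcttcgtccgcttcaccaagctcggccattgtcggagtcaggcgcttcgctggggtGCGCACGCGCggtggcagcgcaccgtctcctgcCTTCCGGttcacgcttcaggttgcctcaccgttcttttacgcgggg
Ndufs3: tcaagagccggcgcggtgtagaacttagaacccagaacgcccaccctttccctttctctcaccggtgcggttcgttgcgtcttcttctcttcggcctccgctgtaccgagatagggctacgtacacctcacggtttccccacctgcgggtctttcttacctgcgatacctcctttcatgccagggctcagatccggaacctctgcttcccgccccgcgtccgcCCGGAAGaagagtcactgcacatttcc
Ndufa8: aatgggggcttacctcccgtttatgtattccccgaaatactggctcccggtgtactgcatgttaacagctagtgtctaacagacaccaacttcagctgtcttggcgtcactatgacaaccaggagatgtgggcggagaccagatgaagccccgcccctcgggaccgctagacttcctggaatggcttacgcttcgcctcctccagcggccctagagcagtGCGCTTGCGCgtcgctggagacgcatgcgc
Cox6b2: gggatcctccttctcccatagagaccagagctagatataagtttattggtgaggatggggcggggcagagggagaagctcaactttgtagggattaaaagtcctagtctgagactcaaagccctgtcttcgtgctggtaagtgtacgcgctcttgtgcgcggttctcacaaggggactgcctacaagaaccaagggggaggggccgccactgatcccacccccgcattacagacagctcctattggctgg

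No respiratory chain or ATP synthase gene passed the test between knockout and wild type cells. In the fit over 13120 genes the lowest adjusted p among the 88 was 0.589 (limma, Benjamini-Hochberg), and over probe sets it was 0.575; Calr was 1 of only 2 genes called among all 13120 (0.0152%), and 8 probe sets of 27022 were called (0.0296%). Differences here and below are knockout minus wild type on the log2 scale and are given ± SE of the fit. The standard errors of the 88 differences ran from 0.18 to 0.59 on the log2 scale with a median of 0.26, which sets the size of a difference that could be seen with 2 wild type samples. At an unadjusted limma p under 0.05, 4 members were lower in the knockout (Ndufb10, Ndufv3, Uqcrq and Atp5g1) and 2 were higher (Cox6b2 and Ndufs4). These are shares of 4.55% and 2.27% of the members, against 3.4% and 4.66% of all genes. Counted instead by whether all 5 knockout signals lay on one side of both wild type signals, 8 members (9.09%) lay below and 4 (4.55%) above, against 7.44% and 6.41% of all genes. After quantile normalization 8 (9.09%) lay below and 5 (5.68%) above, against 9.44% and 4.88% of all genes, and 7 and 4 of them did so on both scales. These counts are close to the background and set the members apart from other genes in neither direction.

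**Figure D1:**
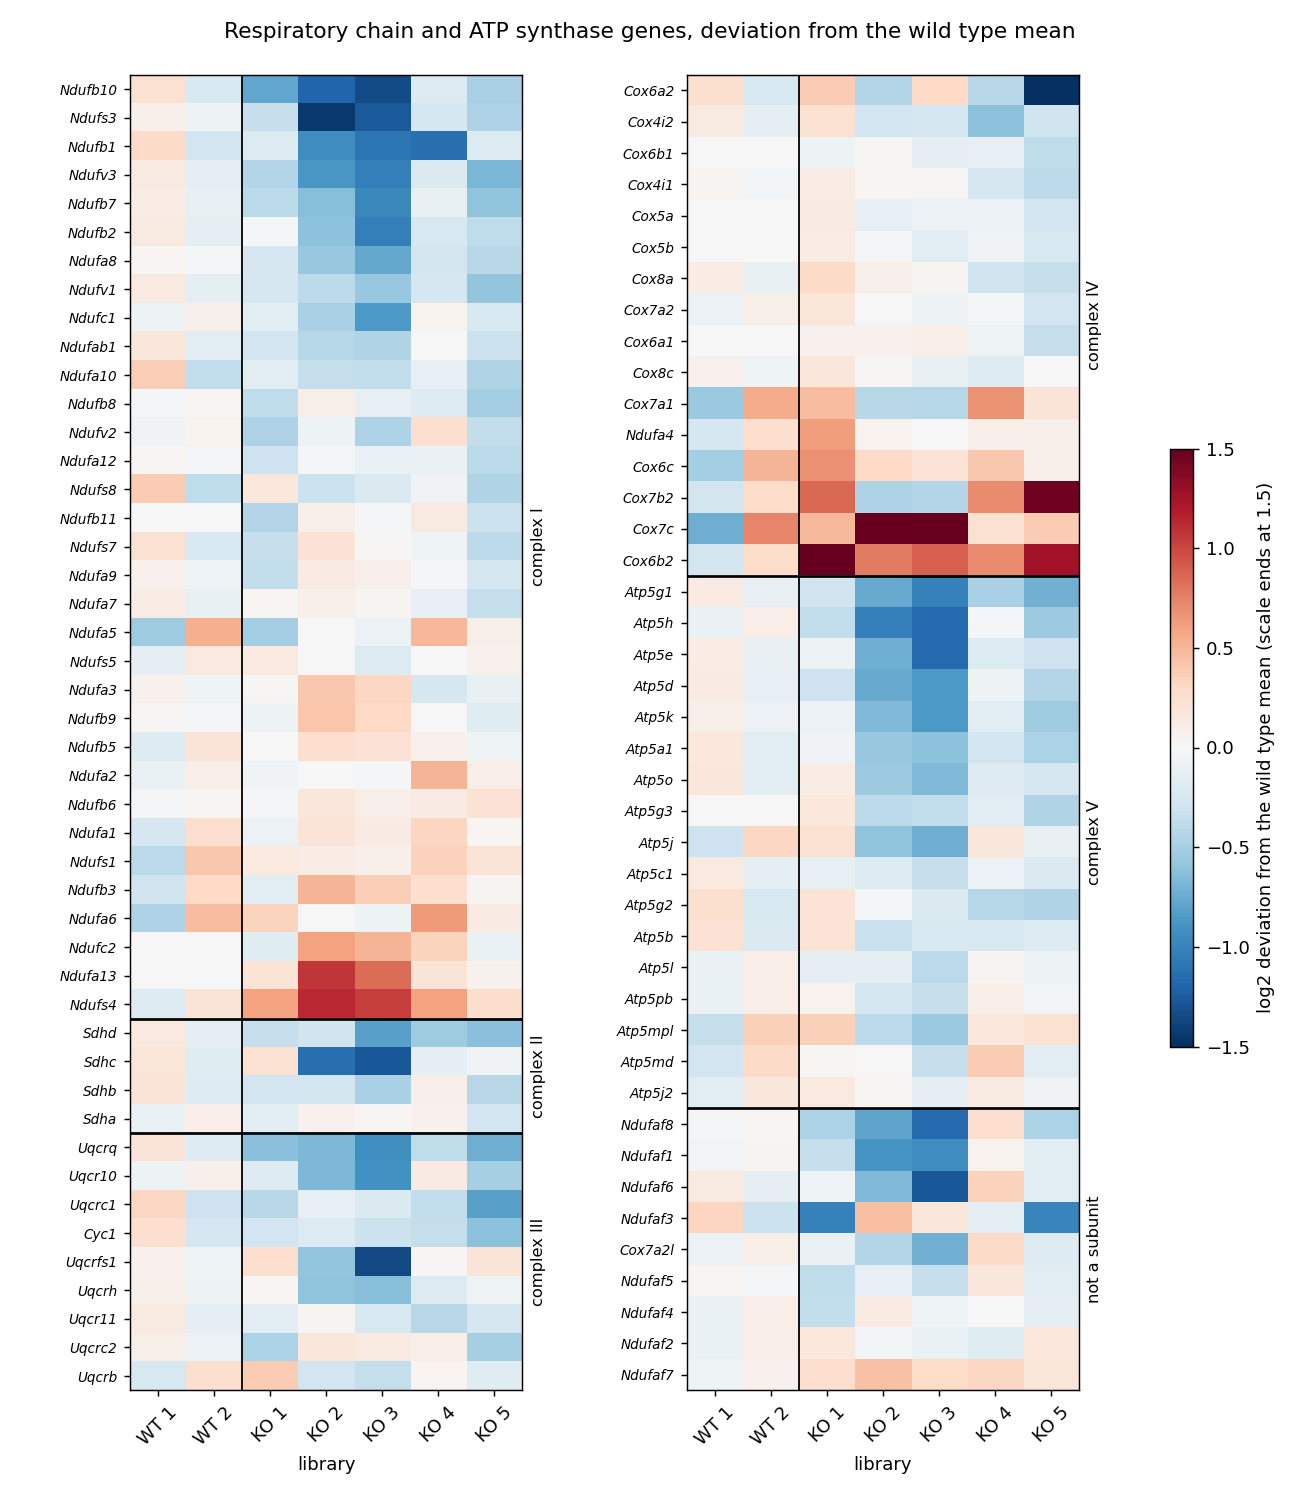
Log2 deviation of each tested gene from the mean of the 2 wild type libraries, with genes in rows by complex (sorted by mean difference) and the 7 libraries in columns; blue is below and red above the wild type mean, and colours end at a deviation of 1.5. Complex V is blue in knockout libraries 2 and 3 for nearly all genes, complex IV is pale in most rows, and complex I holds rows of both colours.

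More members lay below the wild type than above it, but how many depended on how the arrays were scaled. On the deposited scale 68 of the 88 (77.3%) had a negative difference, against 50.3% of all genes, and the median difference was -0.16 against -0.00 for all genes. With quantile normalization 49 of 88 (55.7%) were negative, against 57.7% of all genes, and the medians were -0.04 for the members and -0.09 for all genes. With each array centred on its median, 76 were negative and the medians were -0.28 and -0.12. On the deposited scale bright genes in general lay lower in the knockout. Of the 997 genes with a mean log2 value above 12, 69.1% were negative, with a median of -0.20 and median deviations of -0.39, -0.45 and -0.18 in knockout libraries 2, 3 and 5. The 57 members in that range had a median of -0.14, and 45 of them (78.9%) were negative. The part of brightness in the members' lower median was not tested further.

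**Figure D2:**
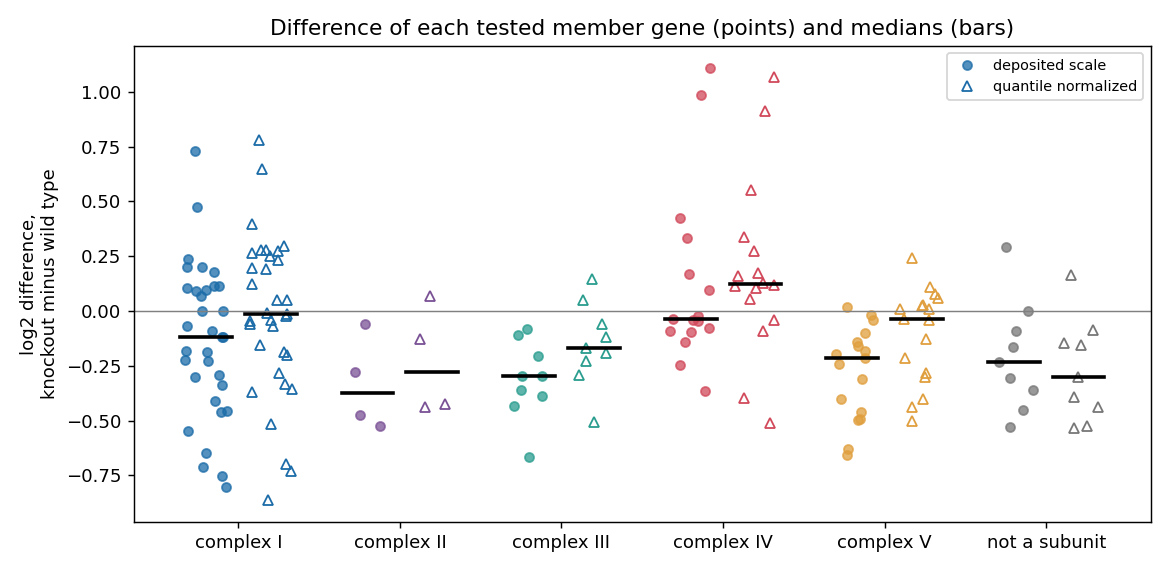
Log2 difference, knockout minus wild type, of each tested gene by complex, with filled circles for the deposited scale, open triangles for quantile-normalized values, and a black bar at the median of each set. All 9 genes of complex III and 16 of 17 of complex V lie below 0 on the deposited scale, against 7 and 9 after quantile normalization.

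Within complex I, which takes electrons from NADH, members lay in both directions. Of 33 tested genes, 21 were lower and 12 higher, from -0.80 to 0.73 on the log2 scale, with a median of -0.12 (-0.01 with quantile normalization). In 5 of them, Ndufs3, Ndufv3, Ndufb7, Ndufa8 and Ndufv1, every knockout signal lay below both wild type signals, and in 2, Ndufs4 and Ndufa13, every one lay above. Over all genes 7.44% lay below and 6.41% above in this way, and 50.3% had a negative difference.

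Ndufs3 encodes a core subunit of the arm that carries the iron-sulfur clusters. Its signals were 4262 and 3854 in the wild type and 3196, 1474, 1687, 3386 and 2926 in the knockout, a log2 difference of -0.75 ± 0.37 that was -0.36 without knockout libraries 2 and 3. Those 2 libraries were far below the other 3 knockout libraries, which lay just under the wild type. Ndufv1, the NADH-binding subunit with the flavin, had 6194 and 5176 in the wild type and 4743.5, 4294, 3803, 4759.9 and 3763 in the knockout, a difference of -0.41 ± 0.23, and here the 5 knockout libraries lay close together. Its other 2 probe sets differed by -0.52 and -0.39, with overlapping groups.

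Ndufv3, an accessory subunit of the NADH-binding module, had signals of 6968 and 5784 in the wild type and 4659.9, 3463, 3109.9, 5481 and 3938 in the knockout (difference -0.65 ± 0.28). Ndufa8, an accessory subunit on the intermembrane space side, had 4818 and 4601 in the wild type and 3938, 3167, 2761, 3888 and 3514 in the knockout (difference -0.46 ± 0.24). In both, knockout library 3 was the lowest and library 1 or 4 the nearest to the wild type. Ndufb7, another accessory subunit, had 9230.0 and 7957 in the wild type and 6466, 5497, 4369, 7948 and 5613 in the knockout (difference -0.55 ± 0.26); knockout library 4 almost reached the lower wild type signal, and the groups overlapped after quantile normalization. Its second probe set differed by -0.45 with groups that did not overlap.

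The most negative difference of complex I was that of Ndufb10, an accessory subunit of the membrane arm, with 5000.2 and 3632 in the wild type and 2471, 1853, 1670.1, 3682 and 3029.5 in the knockout and a difference of -0.80 ± 0.35. Knockout library 4 lay above wild type library 2, so the groups overlapped. Ndufb1, a small membrane subunit, had 658 and 433 in the wild type and 461, 270.5, 239, 233 and 461.5 in the knockout (difference -0.71 ± 0.35); knockout libraries 1 and 5 lay between the wild type signals, and after quantile normalization all 5 lay below them.

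On the other side, Ndufs4 had signals of 1876 and 2474 in the wild type and 3281, 4738.5, 4459, 3286 and 2601 in the knockout and a difference of 0.73 ± 0.30. Ndufs4 is an accessory subunit whose loss is known to impair complex I in mice and people. Knockout libraries 2 and 3 were highest, library 5 was just above wild type 2, and the difference was 0.49 without libraries 2 and 3. Its second-brightest probe set differed by 0.67 and a dimmer one by -0.02, both with overlapping groups. Ndufa13, also known as GRIM-19 and needed for assembly of complex I, had 6297 and 6309 in the wild type and 7272.5, 13274, 11287.5, 7204 and 6589 in the knockout (difference 0.47 ± 0.31), with knockout libraries 2 and 3 far above the rest and the other 3 just above the wild type. Without these 2 libraries its difference was 0.15. Ndufc2, the next highest, had 6557 and 6507.5 in the wild type and 5759, 9969.7, 9325.5, 8254.5 and 6109.9 in the knockout (difference 0.24 ± 0.27), again with knockout libraries 2 and 3 at the top, and the groups overlapped.

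The 6 core subunits tested, Ndufs1, Ndufs3, Ndufs7, Ndufs8, Ndufv1 and Ndufv2, had a median difference of -0.20, with 5 lower and Ndufs1 higher (0.18 ± 0.27). Core and accessory subunits each held members of both directions. Ndufb4 had a single-symbol probe set with signals of 31.3 to 64.6, below the array medians of 92.6 to 124.9, and no difference is given for it. Probe sets shared by Ndufb4, Ndufb4b and Ndufb4c were left out by the rule and were far brighter, at 4541 to 6886 and at 2991 to 4315.

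Complex II consists of 4 subunits, and all lay lower in the knockout on the deposited scale, with a median of -0.37. On that scale 50.3% of all genes were lower. Sdhd, which anchors the complex in the membrane, had signals of 5087 and 4129 in the wild type and 3614, 3723, 2599.6, 3148 and 2964 in the knockout and a difference of -0.52 ± 0.25. All 5 knockout signals lay below both wild type signals, with libraries 1 and 2 nearest, and the difference was -0.50 without knockout libraries 2 and 3. A second, dimmer probe set of Sdhd differed by -0.01, so the 2 probe sets do not show the same size of difference.

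Sdhc, the other anchor, had 3577 and 2764 in the wild type and 3682, 1429, 1294.5, 2857 and 3021 in the knockout (difference -0.47 ± 0.43). Knockout libraries 2 and 3 were far below both wild type signals and the other 3 were within or just above the wild type range; without these 2 libraries the difference was 0.01. Sdhb, the iron-sulfur subunit, had 7041 and 5397 in the wild type and 5037, 5075, 4399, 6578 and 4598 in the knockout (difference -0.28 ± 0.25). For Sdha, the catalytic flavoprotein, the signals were 5011 and 5724 in the wild type and 4758, 5601, 5477, 5599 and 4394 in the knockout, a difference of -0.06 ± 0.22 that turned to 0.07 with quantile normalization. Without knockout libraries 2 and 3 the median of the complex was -0.17, with 3 of 4 lower.

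In complex III all 9 genes were lower in the knockout on the deposited scale, with differences from -0.67 to -0.08 and a median of -0.30. On that scale 50.3% of all genes and 69.1% of those with a mean log2 value above 12 were lower. With quantile normalization 7 of 9 were lower (median -0.17), and 7 of 9 without knockout libraries 2 and 3 (median -0.27). Uqcrq, a small subunit near the ubiquinone site, had signals of 8646.5 and 6629 in the wild type and 4899.8, 4750.5, 4004, 5823.5 and 4531 in the knockout and a difference of -0.67 ± 0.24. Every knockout signal lay below both wild type signals, and the difference was -0.58 without libraries 2 and 3. Its 2 dimmer tested probe sets differed by -0.05 and 0.04.

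Cyc1, cytochrome c1, which passes electrons to cytochrome c, had 12066 and 8556.5 in the wild type and 8299.6, 8799, 8125, 7899.5 and 6617 in the knockout (difference -0.36 ± 0.22). Only knockout library 2 reached above wild type 2, and without libraries 2 and 3 the groups did not overlap (difference -0.42). Uqcrc1, a core protein, had 11252 and 7308 in the wild type and 6773, 8315, 7802, 7035 and 5128 in the knockout (difference -0.39 ± 0.27), with knockout libraries 2 and 3 inside the wild type range and the other 3 below it. In Uqcr10, another small subunit, the order was different, with 6476 and 7184 in the wild type and 5954, 4274, 3611, 7410.1 and 4837 in the knockout (difference -0.43 ± 0.30) and library 4 above both wild type libraries.

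Uqcrfs1, the Rieske iron-sulfur protein that takes the electron from ubiquinol, had 4151 and 3789 in the wild type and 4739, 2625, 1534.5, 4017.5 and 4547 in the knockout (difference -0.30 ± 0.43). Only knockout libraries 2 and 3 were below the wild type, library 3 by far, and without them the difference was 0.16. The nearest to 0 were Uqcr11 (-0.20 ± 0.23), Uqcrc2 (-0.11 ± 0.27) and Uqcrb (-0.08 ± 0.25).

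On the deposited scale complex IV had the median nearest to the wild type of the 5 complexes. Of 16 tested genes, 10 were lower and 6 higher, with a median of -0.04 on the deposited scale and 0.12 with quantile normalization. Cox5a and Cox5b, which surround the catalytic core, had differences of -0.09 ± 0.18 and -0.08 ± 0.19. Cox4i1, the ubiquitous form of subunit 4, had signals of 17507 and 16636 in the wild type and 18422, 17346, 17285.5, 14350.5 and 13026 in the knockout, and its difference was -0.10 ± 0.20. In these genes knockout library 1 was the highest and library 5 the lowest of the 7, and the groups overlapped.

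Several subunits of complex IV exist as a ubiquitous form and a form found mainly in certain tissues, and 1 of the latter had the largest positive difference of all 88 members. Cox6b2, the testis form of subunit 6b, had signals of 855 and 1254.5 in the wild type and 3929.9, 1799, 1949, 1713 and 2501 in the knockout. All 5 knockout signals lay above both wild type signals, library 1 highest, and the knockout mean of 2378 ± 919.9 (SD, n = 5) was 2.25 times the wild type mean of 1055 ± 282 (SD, n = 2). The difference was 1.11 ± 0.36 (limma adjusted p = 0.589), 1.07 with quantile normalization and 1.29 without knockout libraries 2 and 3. Cox6b1, the ubiquitous form, had 13166 and 13357 in the wild type and 12557, 13475, 12047, 12165 and 10198 in the knockout, a difference of -0.14 ± 0.19 that turned to 0.05 with quantile normalization.

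For the other 2 testis forms the groups overlapped. Cox8c had 1183 and 1088.5 in the wild type and 1274, 1149.8, 1053, 988 and 1133 in the knockout (difference -0.02 ± 0.24). Cox7b2 had low signals of 77.7 and 123 in the wild type and 194, 65.9, 67.2, 173 and 306 in the knockout (difference 0.43 ± 0.52); libraries 1, 4 and 5 lay above the wild type and libraries 2 and 3 below it, so that the difference was 1.01 without these 2. Of 8 germ cell and testis markers, 3 passed the filter (Ddx4, Dazl and Prm1), and only Ddx4 was above the array median on every array. Tnp1 and Tnp2, expressed in late sperm cells, had signals of at most 18.2. The summed signal of the 3 tested markers and the other 5 was 759 and 1392 in the wild type and 1096 to 1517 in the knockout.

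For the heart and muscle forms the groups overlapped or the signal was too low to test. Cox6a2 had 157 and 106 in the wild type and 174.5, 90.3, 163, 92.0 and 26.9 in the knockout (difference -0.37 ± 0.51), with knockout library 5 far below the rest. Cox7a1 had 353 and 783 in the wild type and 733, 389, 388, 854 and 604 in the knockout (difference 0.10 ± 0.41), and both wild type libraries spanned nearly the whole range. Cox8b, at 3.2 to 54.1, was below every array median and was not tested. Cox4i2, a form known from lung and low oxygen, had 176 and 143 in the wild type and 189, 126, 129, 96.9 and 125 in the knockout (difference -0.25 ± 0.28). Their ubiquitous partners Cox6a1, Cox7a2 and Cox8a had differences of -0.04 ± 0.20, -0.04 ± 0.19 and -0.05 ± 0.24.

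**Figure D3:**
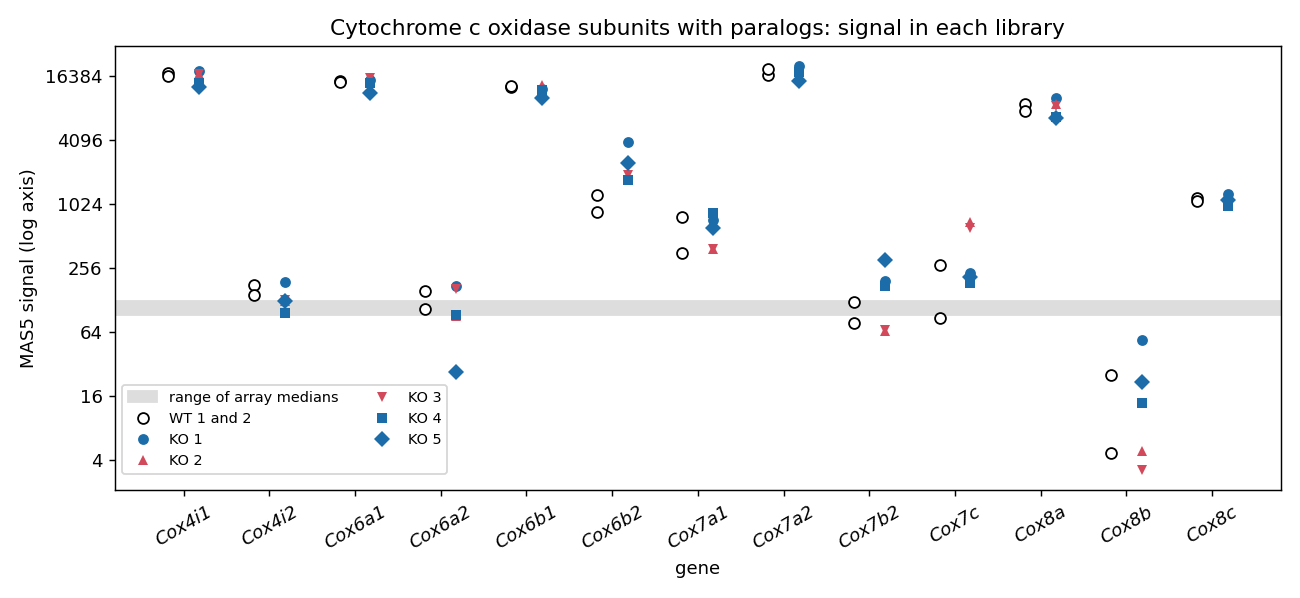
MAS5 signal (log axis) of complex IV subunits that have paralogs and of Cox7c, with open circles for the 2 wild type libraries, blue symbols for knockout libraries 1, 4 and 5 and red triangles for knockout libraries 2 and 3. The grey band spans the array medians, 92.6 to 124.9. Cox6b2 is the only gene shown whose 5 knockout signals all lie above both wild type signals; levels of different genes come from different probes and are not comparable.

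For Cox7c the 2 probe sets were dim. The brighter one had 86.3 and 275 in the wild type and 228, 692, 616, 187 and 210.2 in the knockout (difference 0.99 ± 0.59) and the other differed by 1.06. Knockout libraries 2 and 3 were highest on both, and without them the difference of the brighter one was 0.36, with overlapping groups. Cox6c had 8910.0 and 17956 in the wild type and 20357.5, 15612, 14589.8, 16737.5 and 13353 in the knockout (difference 0.34 ± 0.28), where wild type library 1 was the lowest of all 7 and wild type 2 was within the knockout range. Ndufa4, first counted with complex I and now known as a subunit of complex IV, had 4275 and 6069 in the wild type and 7903, 5283.5, 5068.5, 5413 and 5362 in the knockout (difference 0.17 ± 0.26), with knockout library 1 above all others.

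In complex V, 16 of 17 genes were lower in the knockout on the deposited scale, with a median of -0.21 and differences from -0.66 to 0.02. With quantile normalization 9 of 17 were lower and the median was -0.04. The shares of all genes that were lower on these 2 scales were 50.3% and 57.7%. Without knockout libraries 2 and 3, 12 of 17 were lower (median -0.15). Atp5g1, 1 of 3 genes that encode the same membrane ring subunit c, had signals of 8995 and 7604 in the wild type and 6735, 4880.1, 4097, 5893 and 4998 in the knockout and a difference of -0.66 ± 0.25. All 5 knockout signals lay below both wild type signals, library 1 nearest and library 3 lowest, and the difference was -0.50 both without libraries 2 and 3 and with quantile normalization.

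The other subunit c genes were nearer to the wild type. Atp5g2 had 10483 and 7555 in the wild type and 10290.5, 8729, 7657, 6617 and 6491.5 in the knockout (difference -0.18 ± 0.26) and Atp5g3 had 18945 and 18681 in the wild type and 21026.5, 14381, 14570.2, 16788 and 13753 in the knockout (difference -0.24 ± 0.21), each with overlapping groups and knockout library 1 inside or above the wild type range. The differences between the 3 genes were not tested against each other.

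Atp5h, subunit d of the peripheral stalk, had 13060.2 and 15083 in the wild type and 10839.7, 6908, 6227, 13774 and 9595 in the knockout (difference -0.63 ± 0.31). Knockout libraries 2 and 3 were far below the wild type signals and library 4 lay between the wild type libraries. A second probe set of Atp5h differed by -0.67, and there all 5 knockout signals lay below both wild type signals. The 5 subunits of the catalytic F1 head, Atp5a1, Atp5b, Atp5c1, Atp5d and Atp5e, were all lower on the deposited scale, with a median of -0.40, and none of them had groups that did not overlap. Atp5e, the epsilon subunit, had 5017 and 4289 in the wild type and 4382, 2794, 2061, 4026 and 3750.3 in the knockout (difference -0.50 ± 0.32), with knockout libraries 2 and 3 lowest.

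The head had a median deviation of -0.08 in knockout library 1, -0.57 in 2, -0.62 in 3, -0.20 in 4 and -0.31 in 5. Without knockout libraries 2 and 3 its median difference was -0.20. The genes of complex V nearest to 0 were Atp5md (-0.02 ± 0.27), Atp5mpl (-0.04 ± 0.33) and Atp5j2 (0.02 ± 0.19), small subunits of the membrane part.

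**Figure D4:**
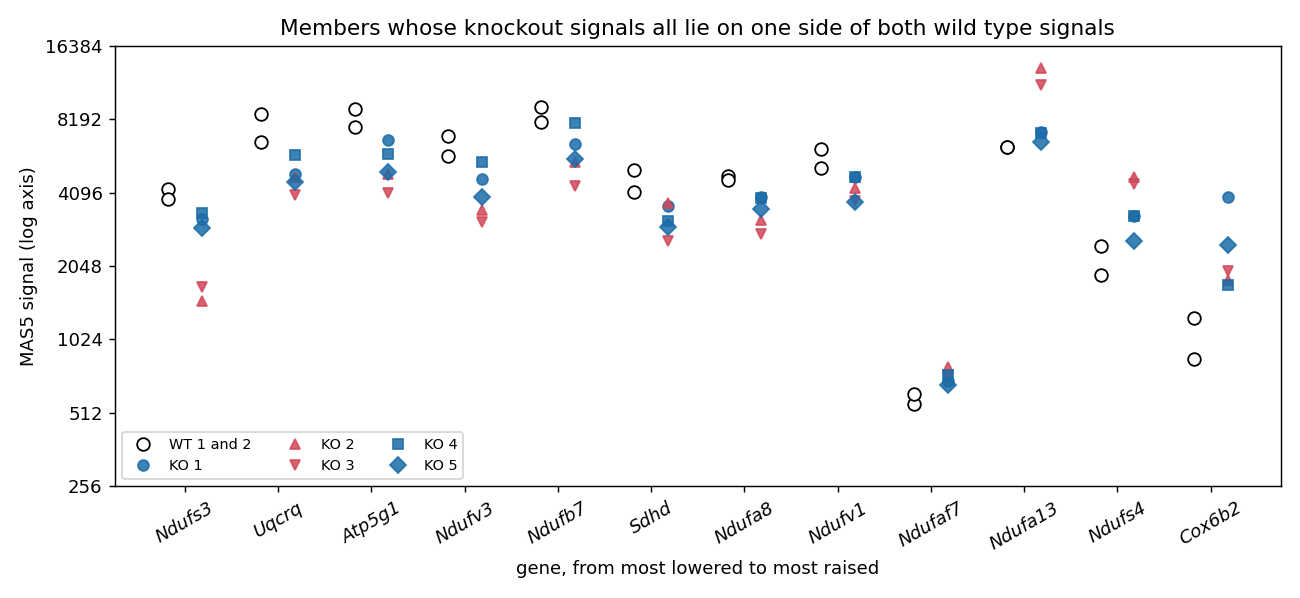
MAS5 signal (log axis) of the 12 genes whose 5 knockout signals all lie on one side of both wild type signals, with open circles for wild type 1 and 2, blue symbols for knockout libraries 1, 4 and 5 and red triangles for knockout libraries 2 and 3. The 8 genes on the left are lower and the 4 on the right higher in every knockout library; these genes were picked for this pattern, and the shares among all genes tested are 7.44% and 6.41%.

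Members that are not subunits were mostly lower, 8 of 9 tested, with a median of -0.23, where 50.3% of all genes were lower. Ndufaf8 had 2517 and 2607 in the wild type and 1839, 1477.5, 1129, 3049 and 1839 in the knockout (difference -0.53 ± 0.36) and Ndufaf1 had 1292 and 1372.5 in the wild type and 1040.0, 715, 690.4, 1385.5 and 1192 in the knockout (difference -0.45 ± 0.33); both are assembly factors of complex I, and in both library 4 lay above the wild type. Ndufaf6 had a difference of -0.36 ± 0.41, which was 0.04 without knockout libraries 2 and 3. Ndufaf7, a methyltransferase that acts on a complex I subunit, was the exception, with 556 and 609.7 in the wild type and 695, 793, 709, 729 and 665 in the knockout (difference 0.29 ± 0.23) and every knockout signal above both wild type signals. Its whole range was narrow, and the standard error was nearly as large as the difference. Ndufaf3 had 1027 and 645 in the wild type and 392, 1118, 921, 734 and 401 in the knockout (difference -0.31 ± 0.45), with knockout libraries 1 and 5 far below the others. The next highest after Ndufaf7 were Ndufaf2 (-0.00 ± 0.25) and Ndufaf4 (-0.09 ± 0.25).

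The complexes did not shift alike within the same library, a comparison that does not depend on the level of the array as a whole. The median deviation of complex V minus that of complex IV was -0.24, -0.41, -0.51, -0.03 and 0.01 in knockout libraries 1 to 5 on the deposited scale, and -0.18, -0.54, -0.54, -0.04 and -0.13 after quantile normalization. It was 0.10 and -0.10 in the wild type libraries. Complex V was thus below complex IV mainly in libraries 2 and 3, and by less in library 1. The complex IV medians include 6 tested tissue forms, some of them dim. Without these forms they were 0.15, 0.04, 0.01, -0.05 and -0.29 in knockout libraries 1 to 5 on the deposited scale. With them they were 0.26, 0.02, -0.04, -0.05 and -0.27. Differences from complex IV in library 1 therefore rest in part on these forms. Complex III minus complex IV was -0.45, -0.30, -0.31, -0.15 and -0.23 on the deposited scale and negative in all 5 knockout libraries on the other scale too, -0.42 to -0.20. The wild type libraries gave 0.10 and -0.10 here as well, so each knockout library lay below both. With the complexes chosen after their values were seen, these are descriptions without a test.

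**Figure D5:**
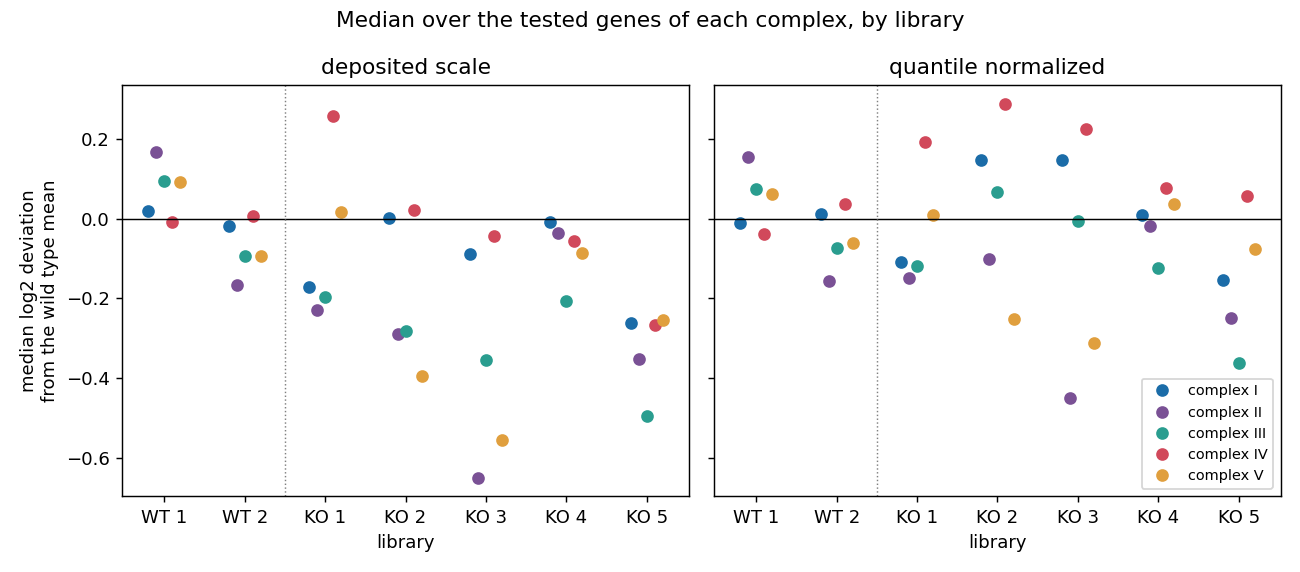
Median log2 deviation from the wild type mean over the tested genes of each complex (colours), by library, on the deposited scale (left) and after quantile normalization (right). Complex IV (red) is above complex III (green) in all 5 knockout libraries in both panels, and complex V (orange) is furthest below complex IV in knockout libraries 2 and 3.

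Knockout libraries 2 and 3 had the widest spread of members around the wild type, in both directions. The SD of the 88 deviations was 0.52 and 0.57 in these 2, against 0.39, 0.31 and 0.40 in knockout libraries 1, 4 and 5 and 0.22 in each wild type library, which deviate only from their own mean. In both libraries together 52 members (59.1%) lay below the wild type mean and 23 (26.1%) above it, against 45.4% and 43.6% of all genes. By more than 0.5 on the log2 scale, 23 members were below in both and 5 above in both. Knockout library 5 was lower more evenly. There 68 of 88 members lay below the wild type mean, 13 by more than 0.5, and 6504 of all 13120 genes lay below it. The SDs and the counts past 0.5 were not made over all genes. Knockout libraries 2 and 3 stood apart over all probe sets too, so these values do not set the members apart.

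Beside these 2 libraries, the fibroblast and feeder cell markers moved. The summed signal of the 13 measured markers was 2843 and 2213 in the wild type, 5484 and 5368 in knockout libraries 2 and 3, and 1443 to 2353 in the other knockout libraries. Of 11 tested markers, 5 were above the array median on all arrays. Dcn, which encodes decorin of the connective tissue matrix, had 552 and 555 in knockout libraries 2 and 3 and 13.4 to 55.6 elsewhere, while Lum and Fap did not pass the filter. Their part in the members' values was not tested; in a bulk sample fewer cells of a type and less RNA per cell cannot be told apart. Muscle markers had a median difference of -0.04 over 10 tested genes. All 8 tested primitive endoderm markers had a negative difference, with a median of -0.51, where 50.3% of all genes had one. Only 3 of them were above the array median on all arrays. The summed signal of the 10 measured markers was 3984 and 7184 in the wild type. In the knockout it was 3736, 5668, 5690, 2822 and 5164, so the groups overlapped.

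Leaving out knockout libraries 2 and 3 left no member called (lowest limma adjusted p = 0.77, with 0.00762% of all genes called). A fit with these 2 libraries as a term of their own called none either (lowest limma adjusted p = 0.42, with 0.0534% of all genes called). That fit gives the same differences by construction and changes only the estimate of the spread, so it is not a second check of them. The members' median was -0.12, with 60 lower and 28 higher. In the 3 remaining knockout libraries 14 members (15.9%) lay below both wild type signals and 5 (5.68%) above, against 10.8% and 10.4% of all genes. The genes that join in this way are Ndufb8, Ndufa12, Uqcrc1, Cyc1, Uqcr11 and Cox6b1 on the lower side and Cox7b2 on the higher side.

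Different probe sets of a gene often disagreed. Of 48 genes with 2 or more tested probe sets, 31 had differences of 1 sign and 17 of both. The widest was Ndufab1, the mitochondrial acyl carrier protein, from -0.30 on its brightest probe set to 1.06 on a dim one. Ndufc2 ran from -0.45 to 0.53 and Ndufaf4 from -0.09 to 0.87. Values above are those of the brightest probe set of each gene.

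Of the other genes of the pathway, taken from lists written from textbook knowledge, none was called in any list. The assembly factors of the complexes, 38 tested, had a median of -0.13, with 21 lower and 17 higher, and 5 lay below and 3 above both wild type signals in every knockout library, where the shares over all genes are 7.44% and 6.41%. Tmem126b, an assembly factor of complex I, had dim signals of 40.3 and 70.4 in the wild type and 156, 217, 189.6, 82.5 and 165.5 in the knockout (difference 1.25 ± 0.35), all 5 above both wild type signals. Coa3, which acts early in complex IV assembly, had 6672 and 4311 in the wild type and 3733, 2338, 1882, 4029 and 3413 in the knockout (difference -0.85 ± 0.35), all 5 below. Cox17, the copper chaperone of complex IV, had a difference of -0.41 ± 0.33 and Higd2a of 0.01 ± 0.27. Without knockout libraries 2 and 3 these differences were -0.07 and -0.22.

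Among electron carriers and genes of ubiquinone synthesis, 9 of 18 were lower and the median was 0.04. Coq4, needed to make ubiquinone, had 811 and 451.5 in the wild type and 347, 315.5, 278, 421 and 353.5 in the knockout (difference -0.80 ± 0.29), all 5 below both wild type signals. Gpd2, which feeds electrons from glycerol phosphate to ubiquinone, had 2353 and 2925.5 in the wild type and 3210.1, 4306, 4375, 3608 and 3389 in the knockout (difference 0.51 ± 0.25), all 5 above. Cytochrome c (Cycs, -0.22 ± 0.26) and the electron transfer flavoprotein subunit Etfb (-0.35 ± 0.37) had overlapping groups. Without knockout libraries 2 and 3 their differences were 0.03 and 0.04. The list of the ATP synthase inhibitor and nucleotide carriers, 5 genes, had a median of -0.15, with -0.40 ± 0.22 for the phosphate carrier Slc25a3 and -0.19 ± 0.20 for the ADP/ATP carrier Slc25a5.

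The transcription regulators of respiratory genes, 14 tested, had a median of 0.04, and their members differed in direction. Yy1 had 3457 and 5825 in the wild type and 2722, 1622, 1615, 2932.5 and 3455 in the knockout (difference -0.92 ± 0.38), with knockout library 5 almost level with wild type 1 and all 5 below both. Gabpa, the DNA-binding subunit of GABP, had 948 and 2756 in the wild type and 2459, 4191, 4164, 2619 and 3033 in the knockout (difference 0.98 ± 0.41), where wild type 1 was the lowest of all and the groups overlapped. Nrf1, named after its values were seen, had 1708 and 1559 in the wild type and 1326, 567, 618, 1369.9 and 1234 in the knockout (difference -0.76 ± 0.41), with knockout libraries 2 and 3 far below and the other 3 just below the wild type; the difference was -0.31 without these 2. Sp1 (0.44 ± 0.27) and Hcfc1 (-0.29 ± 0.32) had overlapping groups.

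Genes of mitochondrial DNA maintenance and transcription had a median of 0.01 over 12 genes. Tfam, which packages and transcribes mitochondrial DNA, differed by -0.03 ± 0.32, Ssbp1 by 0.04 ± 0.30, Mterf2 by 0.63 ± 0.37 and the polymerase gene Polg by -0.81 ± 0.46, all with overlapping groups. ND5, a complex I subunit encoded in mitochondrial DNA, was the only such gene with a probe set of its own symbol. It had 4956.5 and 6868.5 in the wild type and 9526, 13284, 13749, 3993 and 6888 in the knockout (difference 0.56 ± 0.45). Knockout libraries 2 and 3 were highest and library 4 lowest, and without libraries 2 and 3 the difference was 0.13.

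The 8 outer membrane genes, a list outside the inner membrane complexes, had a median of -0.39 on the deposited scale, lower than that of the members. Of these genes 7 were lower, against 50.3% of all genes, and 4 lay below both wild type signals in all knockout libraries, against 7.44%. Median deviations were -0.49 and -0.70 in knockout libraries 2 and 3, and without these 2 the median difference was -0.27. Vdac1, Samm50 and Tomm20 were bright, and 69.1% of genes with a mean log2 value above 12 were lower on this scale. No quantile-normalized value is given for the list. Vdac1, the main channel of the outer membrane, had 18241 and 15924 in the wild type and 15821, 7797, 6416, 13160.0 and 8694 in the knockout (difference -0.80 ± 0.34), with knockout libraries 2 and 3 lowest and all 5 below both wild type signals. Samm50, which inserts proteins into that membrane, had 10165 and 8747 in the wild type and 7228, 4794, 4655, 8017 and 6769 in the knockout (difference -0.62 ± 0.28), and Tomm20, an import receptor, differed by -0.09 ± 0.20.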

How the data were processed

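RNA of 2 wild type and 5 calreticulin knockout pools of D3 cells was hybridised to 1 array each. The deposited values are intensities, 1 MAS5 signal per probe set, per the submitters' processing notes, with no version stated there. Trimmed by 2% at each end, the mean signal was 500.0 on every array, so each signal is relative to its own array. Medians of the arrays, 92.6 to 124.9, differed by a factor of 1.35, and normalization beyond that was planned only above 1.5. A low signal cannot be told from background without detection calls, which were not used here.

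Values were analysed as log2(signal + 20.2), the added constant being the 20th percentile of the table; this understates the change of dim probe sets. After leaving out 64 control probe sets, 27022 probe sets whose mean exceeded the 40th percentile were fitted by lmFit and eBayes (limma 3.58.1, R 4.3.3) with a mean-variance trend, two-sided, at a Benjamini-Hochberg adjusted p under 0.05. For genes, the brightest probe set with 1 symbol was fitted, over 13120 genes. Tested on simulated data for these 13120 genes and 7 arrays, the fit called 14% of changes of 1 log2 unit, 92% of 2 units, 98% of 3 units and 100% of 4 units, with 10 false calls. The simulation changed 200 genes at once, with independent noise and without the likeness between knockout libraries 2 and 3. The adjusted threshold is easier to pass when many genes change, and only 2 genes were called in the real fit. The shares hold for the simulated setting and may overstate what could be called here. The number of arrays limits the precision.

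Genes were named by a rule: in each complex and among the non-subunits the 3 highest and 3 lowest differences, members whose groups did not overlap, all Sdh genes, Cyc1 and the paralog families, the 3 genes with the widest spread over probe sets, and from each list up to 2 genes by lowest p and 2 by highest mean. Members and lists were chosen with earlier results of these data known. Correlations with the complex I profile, part of the rule, are not given because the libraries fall into clusters. Of the alternatives, the limit of 12 for bright genes and the counts of non-overlapping groups after quantile normalization were chosen after seeing the data. Promoter sequences are from RefSeq (GRCm38.p6). Figures were drawn with matplotlib 3.10.9.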

Additional observations from a re-analysis of the deposited data

Results flagged for a closer look

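In 72 groups of 5 knockout values looked at, 2 had a highest library unusually far from the other 4, by Dixon's gap divided by the range with a limit of 0.71; chance alone flags about 1 group in 20. For Ndufa4, a subunit of complex IV, knockout library 1 stood above the others with a ratio of 0.852 (signals of 7903 against 5069 to 5413). For Tomm20, an import receptor of the outer membrane, the same library stood above the others with a ratio of 0.721 (25335 against 17177 to 19147).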

How the results depend on the processing

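No member was called under any alternative run: quantile normalization, centring on array medians, pseudocounts of 1 and 50, no filter or one at the 60th percentile, no trend, array weights, the replicate block, the mean of a gene's probe sets, each library left out, and knockout libraries 2 and 3 left out or fitted as a term. Leaving these 2 libraries out and fitting them as a term give the same differences by construction. The median difference of the members, -0.16, was -0.042 with quantile normalization and -0.28 with centring, and -0.19 to -0.11 with 1 library left out. With the replicate block it was -0.12, with 56 of 88 lower and a lowest limma adjusted p of 0.396. Only replicate numbers 1 and 2 occur in both groups, so that difference rests on wild type 1 and 2 and knockout 1 and 2 alone. The deviations of same-numbered libraries correlated at 0.109 and -0.01, so the numbers were not taken as pairs. Small differences turned sign: Atp5j2 to -0.10 with centring and to -0.15, -0.01 and -0.01 without wild type replicate 1, knockout replicate 1 and knockout replicate 4 (range with 1 library left out -0.15 to 0.19); Cox6b1 to 0.055 with quantile normalization; and, without knockout libraries 2 and 3 or with them as a term, Ndufaf6 to 0.043 and Sdhc to 0.010. The cause of these turns was not tested. The Calr difference lost its call without wild type replicate 1 or 2 (-3.58 and -3.78, limma adjusted p = 0.176 and 0.137, where the lone wild type library is assumed to vary like the knockout); over its other alternatives the adjusted p ran from 3.06e-06 to 0.0336.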
